A study of Homo sapiens with 21 samples.

Results

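The sestrins SESN1, SESN2 and SESN3 and the related proteins DDIT4 (also called REDD1) and DDIT4L (REDD2) restrain mTORC1, the kinase complex that couples growth to nutrients and stress. The 5 genes were taken by symbol from a table of 23368 genes, and each symbol had 1 row. RNA was sequenced from hTERT-HPNE cells, a pancreatic duct-derived line immortalized with telomerase, in 21 libraries, 3 biological replicates for each of 7 groups. One group was untreated, and the others received either 300 µM H2O2, an oxidant, or 400 ng/ml neocarzinostatin (NCS), a drug that breaks DNA strands, and were harvested 4, 8 or 24 h later. All groups came from the same telomerase-expressing line, so none is a model of primary duct cells. Untreated cells, taken at 0 h, served every time point, and the sources used here do not say whether they too had the medium change made at treatment, so treatment, time and medium change cannot be told apart in the comparisons with untreated cells. In bulk RNA, a change in every cell and a change in which cells were harvested cannot be told apart either.

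Sestrins bind GATOR2 and thereby relieve GATOR1, which switches off the Rag GTPases that bring mTORC1 to the lysosome. SESN2 releases GATOR2 when it binds leucine, so it is also a nutrient sensor, and sestrins additionally engage AMPK and limit peroxides. DDIT4 acts on the other arm, where it favours the TSC complex, the inhibitor of the GTPase RHEB. In the textbook view SESN1 is a target of p53, SESN2 of p53, NRF2 and ATF4, SESN3 of FOXO factors, and DDIT4 of ATF4, HIF-1, the glucocorticoid receptor and p53. The libraries measured transcripts, and neither the proteins nor mTORC1 activity were measured in them.

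By GENCODE v29 on GRCh38, the protein-coding genes lay at chr6:108986437-109094819 on the minus strand for SESN1, chr1:28259527-28282491 on the plus strand for SESN2, chr11:95165513-95232541 on the minus strand for SESN3, chr10:72273920-72276036 on the plus strand for DDIT4 and chr4:100185870-100190782 on the minus strand for DDIT4L. The submitters' processing notes list hg19, so these positions describe the reference and not the authors' alignment. Windows of 300 bases around the RefSeq start sites (250 before, 50 after, GRCh38.p14) were found for all 5 genes, 7 windows in all, of which 3 belonged to SESN1. They were searched on both strands for TGATGNAA (the ATF4-C/EBP composite element), ACGTG (the core bound by HIF), TGACNNNGC (the antioxidant core bound by NRF2), TGTTTAC (a FOXO site) and the 10-base p53 half-site. Of all 35116 windows of this length, 3.6% held the first, 21.4% ACGTG, 13.3% TGACNNNGC, 3.4% TGTTTAC and 6.6% a p53 half-site. Each of the 3 genes whose transcripts responded is represented by 1 window, and capitals mark a motif match. Of the 3 SESN1 windows, the sequence is that of the window with the p53 half-site. The SESN1 windows with TGACNNNGC and with no match are left out, so the choice does not weigh p53 against the other motifs.
SESN1, chr6:109008939-109009238, minus strand: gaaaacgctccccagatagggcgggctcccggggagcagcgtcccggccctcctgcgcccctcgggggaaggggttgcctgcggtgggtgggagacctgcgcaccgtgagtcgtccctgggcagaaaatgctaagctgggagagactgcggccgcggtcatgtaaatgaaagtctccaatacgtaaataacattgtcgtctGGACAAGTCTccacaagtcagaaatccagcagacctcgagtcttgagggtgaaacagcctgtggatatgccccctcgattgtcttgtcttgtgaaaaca
SESN2, chr1:28259268-28259567, plus strand: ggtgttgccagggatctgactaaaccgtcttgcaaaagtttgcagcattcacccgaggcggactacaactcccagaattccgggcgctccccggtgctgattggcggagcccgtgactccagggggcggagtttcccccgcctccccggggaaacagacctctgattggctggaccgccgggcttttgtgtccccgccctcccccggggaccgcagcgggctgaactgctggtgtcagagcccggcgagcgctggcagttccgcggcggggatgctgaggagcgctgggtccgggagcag
DDIT4, chr10:72273674-72273973, plus strand: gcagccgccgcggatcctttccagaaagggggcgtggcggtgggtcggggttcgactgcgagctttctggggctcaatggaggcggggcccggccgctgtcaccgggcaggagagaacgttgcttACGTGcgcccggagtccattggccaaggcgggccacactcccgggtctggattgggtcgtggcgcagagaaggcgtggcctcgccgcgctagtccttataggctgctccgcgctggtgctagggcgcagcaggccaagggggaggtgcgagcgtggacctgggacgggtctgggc
The SESN1 match is a p53 half-site starting 49 bases before the start site, and the DDIT4 match is ACGTG starting 125 bases before it. Another SESN1 window, chr6:109009503-109009802, held TGACNNNGC, read on the opposite strand, 159 bases before its start. None of the 5 motifs was found in the windows of SESN2, SESN3 and DDIT4L or in the other SESN1 window, which says only that these letters are not in these windows.

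The deposited values are rLog values, that is, counts normalized and put on a log2 scale by DESeq2, with differences shrunk, above all in weakly counted genes. Counts are not part of the table, the depth behind a value is therefore unknown, and neither counting intervals nor a detection limit can be given. Library medians lay between 7.14 and 7.19. Replicate 2 of H2O2 8 h stood apart, at a root-mean-square distance of 0.12 from the mean of the other 2 replicates of its group. This distance was taken over the 11681 genes with a mean value of at least 5, and was 0.0627 to 0.0941 for the other 20 libraries. The main results that use H2O2 8 h are therefore also given without replicate 2. TERT (13.86 to 14.37), VIM and NES were high, and KRT18 lay between 11.38 and 11.85. KRT19, a defining duct keratin, lay between 0.58 and 0.73, near the low end of the table, and the acinar and islet genes PRSS1 and INS were listed at 0 in every library.

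Per kilobase DDIT4 and SESN2 were the most abundant members, SESN1 was lower, and SESN3 and DDIT4L were close to the low end of the table. As means over the 21 libraries, the rLog values were 11.12 for SESN2, 11.22 for DDIT4 and 9.41 for SESN1, at or above 88.7%, 89.5% and 69.6% of the 19694 genes tested. SESN3 (-0.88) and DDIT4L (1.53) were at or above 15.1% and 26.2%. Per kilobase of annotated exon, on the scale of rLog minus log2 length, the levels in untreated cells were 9.39 for DDIT4, 8.08 for SESN2 and 6.24 for SESN1, and -0.07 for DDIT4L and -4.29 for SESN3. Of the exon bases of DDIT4, 41.16% are shared with the antisense gene DDIT4-AS1, and 7.09% of those of SESN1 with the antisense gene AL390208.1. The library kit kept strand, but the strand setting of the counting is not given in the sources used here. If the counting ignored strand, reads over the shared bases could have altered the DDIT4 values. The direction and size of such an effect were not tested.

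SESN1, the sestrin known as a p53 target, was higher in all treated groups and peaked at different times in the treatments, at 4 h after NCS and at 8 h after H2O2. Its rLog values were 8.63, 8.55 and 8.62 in untreated cells. With H2O2 the 4 h replicates read 9.20, 9.32 and 9.40, the 8 h replicates 9.77, 9.50 and 9.81, and the 24 h replicates 9.51, 9.52 and 9.57. With NCS the 4 h replicates read 9.80, 9.80 and 9.82, the 8 h replicates 9.47, 9.48 and 9.46, and the 24 h replicates 9.43, 9.54 and 9.48. Every treated library was above every untreated library. In order of the means, the groups ran from untreated through H2O2 4 h, NCS 8 h, NCS 24 h, H2O2 24 h and H2O2 8 h to NCS 4 h, and from NCS 8 h upwards each group overlapped the next. The log2 difference from untreated cells was 0.71, 1.10 and 0.93 (SE 0.06 each) at 4, 8 and 24 h after H2O2, with adjusted p-values of 2.31e-08, 2.20e-10 and 2.74e-10 by limma. The NCS differences at these times were 1.20, 0.87 and 0.89, with adjusted p-values of 1.06e-10, 3.99e-09 and 6.55e-10.

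SESN2, a leucine-binding sestrin, gave the largest sestrin response to H2O2. Its rLog values were 9.87, 9.89 and 9.85 in untreated cells. With H2O2 the 4 h replicates read 11.72, 11.73 and 11.77, the 8 h replicates 12.08, 11.71 and 12.10, and the 24 h replicates 11.43, 11.40 and 11.44. With NCS the 4 h replicates read 10.96, 11.00 and 10.96, the 8 h replicates 10.99, 11.02 and 10.99, and the 24 h replicates 10.79, 10.91 and 10.92. The untreated, NCS and H2O2 libraries formed 3 ranges without overlap, in that order. Only NCS 4 h overlapped its neighbour NCS 8 h, and H2O2 4 h its neighbour H2O2 8 h, in the order of the means. The log2 difference from untreated cells was 1.87, 2.09 and 1.55 (SE 0.07 each) at 4, 8 and 24 h after H2O2, or 3.65-, 4.27- and 2.94-fold, with adjusted p-values of 2.88e-13, 3.38e-13 and 8.91e-13 by limma. The NCS differences at these times were 1.10, 1.13 and 1.0013, or 2.15-, 2.18- and 2.00-fold, with adjusted p-values of 1.38e-09, 6.10e-10 and 5.09e-10. These folds are those of the shrunken rLog scale.

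DDIT4, which acts through the TSC complex, rose at every time after H2O2, while after NCS it was slightly below untreated cells at 4 h and above them later. Its rLog values were 10.51, 10.40 and 10.37 in untreated cells. With H2O2 the 4 h replicates read 11.57, 11.64 and 11.70, the 8 h replicates 12.47, 12.01 and 12.47, and the 24 h replicates 12.06, 12.05 and 12.10. With NCS the 4 h replicates read 10.17, 10.18 and 10.22, the 8 h replicates 10.74, 10.73 and 10.76, and the 24 h replicates 11.15, 11.20 and 11.19. The groups overlapped only between H2O2 24 h and H2O2 8 h, and the lowest H2O2 library was above the highest NCS library. The log2 difference from untreated cells was 1.21, 1.89 and 1.64 (SE 0.08 each) at 4, 8 and 24 h after H2O2, with adjusted p-values of 8.66e-10, 1.38e-11 and 5.32e-12 by limma. The NCS differences at these times were -0.24, 0.32 and 0.75, with adjusted p-values of 0.0492, 0.00655 and 3.32e-07. The fall at 4 h after NCS was at the edge of the threshold, with an adjusted p between 0.00635 and 0.0855 over the other settings and between 0.0587 and 0.199 when any of the 6 libraries compared was left out.

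SESN3, the FOXO-linked sestrin, and DDIT4L, the DDIT4 paralogue, passed the test by limma in none of the 15 comparisons made, and in 0 of them was the unadjusted p under 0.05. SESN3 lay between -0.89 and -0.85 in all libraries, a range of 0.043, and DDIT4L between 1.47 and 1.64, a range of 0.171. At values this low the rLog transformation leaves little room for a difference, so a response of these genes was not detectable in this table.

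**Figure D1:**
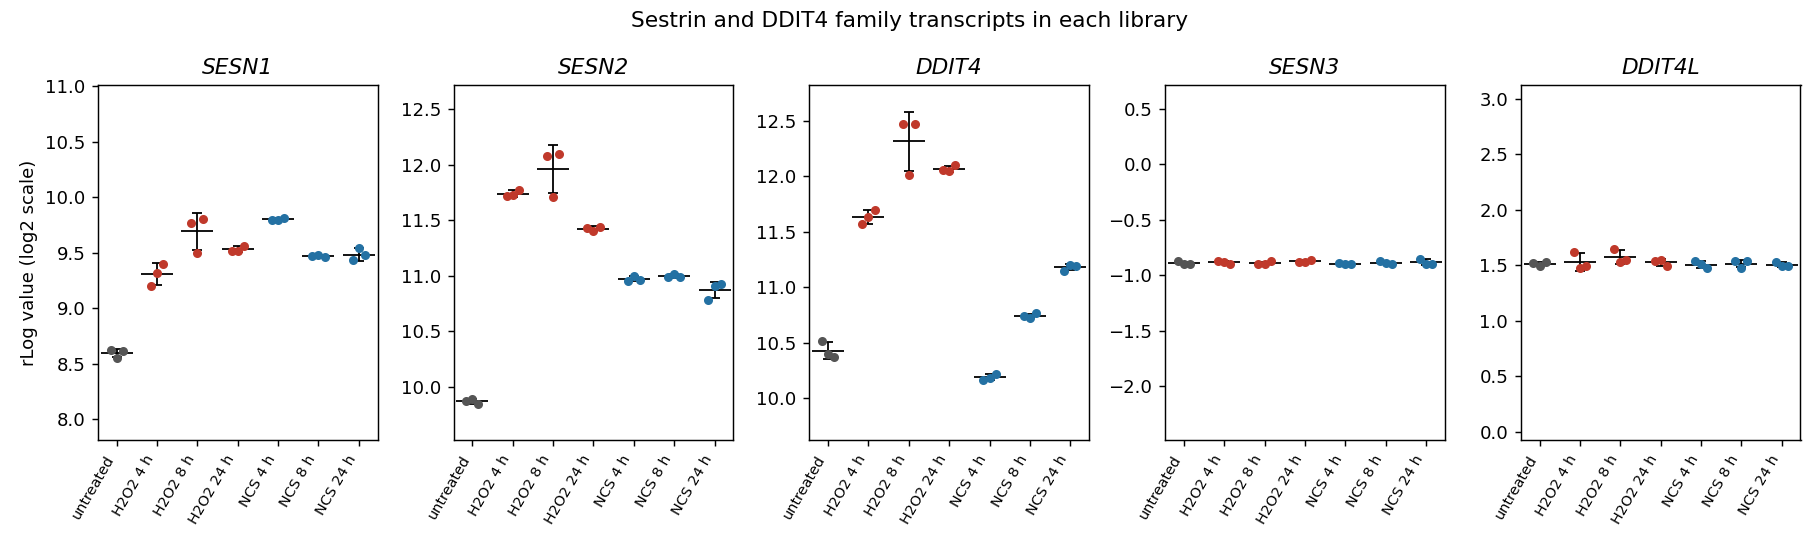
The rLog value (log2 scale) of each member in each of the 21 libraries, by group. Points are libraries, and the black bar with whiskers is the group mean ± SD (n = 3). Each panel spans the same number of log2 units. SESN1, SESN2 and DDIT4 shift between groups, SESN2 from about 9.87 untreated to 12.10 at the highest, while SESN3 and DDIT4L stay flat, and replicate 2 of H2O2 8 h lies below the other replicates of its group in SESN1, SESN2 and DDIT4.

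Genes were called differentially expressed at an adjusted p-value under 0.05 and an absolute log2 difference over 1. After H2O2 these were SESN2 and DDIT4 at 4 h (0.655% of all genes tested were called higher), SESN1, SESN2 and DDIT4 at 8 h (0.32%), and SESN2 and DDIT4 at 24 h (0.325%). After NCS they were SESN1 and SESN2 at 4 h (0.0914%), and SESN2 at 8 h (0.066%) and at 24 h (0.127%). The call of SESN2 at 24 h after NCS rested on a difference just over 1. It was 0.984 without NCS 24 h replicate 2, 0.976 without NCS 24 h replicate 3 and 0.991 without untreated replicate 3. By the adjusted p-value alone, SESN1, SESN2 and DDIT4 were higher in the H2O2 groups at 4, 8 and 24 h, where 26.2%, 18.8% and 20.2% of all genes were. After NCS, SESN1 and SESN2 were higher at 4 h, against 7.47% of all genes, and DDIT4 was lower, as were 9.72%. SESN1, SESN2 and DDIT4 were higher at 8 and 24 h after NCS, against 10.5% and 19.6% of all genes. Without replicate 2 of H2O2 8 h, the differences from untreated cells at 8 h after H2O2 were 1.19 for SESN1, 2.22 for SESN2 and 2.04 for DDIT4. Ranked by difference from untreated cells among 19694 genes, SESN2 stood at 7 and DDIT4 at 12 at 8 h after H2O2 (7 and 11 without replicate 2), and SESN1 at 13 and SESN2 at 15 at 4 h after NCS. A two-sided exact permutation test of 3 libraries against 3 cannot give a p below 0.1.

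Set against each other at the same time, H2O2 gave more SESN2 and DDIT4 transcript than NCS, and the order for SESN1 depended on the time. SESN2 was higher after H2O2 by 0.77, 0.97 and 0.55 at 4, 8 and 24 h, with adjusted p-values of 3.35e-08, 5.71e-09 and 6.24e-06 by limma. For DDIT4 the differences were 1.45, 1.57 and 0.89, with adjusted p-values of 9.10e-11, 2.29e-10 and 1.94e-07. SESN1 was lower after H2O2 than after NCS at 4 h, by -0.50 (adjusted p = 2.02e-06), and higher at 8 h, by 0.22 (adjusted p = 0.00654, but 0.0924 when only the groups compared were fitted). At 24 h its difference was 0.05 (95% confidence interval -0.08 to 0.17, adjusted p = 0.701), and the groups overlapped. Of all genes, 26.3%, 18.7% and 11% were higher after H2O2 at 4, 8 and 24 h, and 18%, 15.4% and 10.9% were lower. Of the members, DDIT4 at 4 and 8 h exceeded the limit of 1, as did 0.559% and 0.157% of all genes in that direction. Without replicate 2 of H2O2 8 h the 8 h differences were 0.32 for SESN1, 1.09 for SESN2 and 1.73 for DDIT4, so that SESN2 also exceeded it.

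The course over time differed between the members. After H2O2, between 4 and 8 h, SESN1 rose by 0.39 (adjusted p = 3.53e-05 by limma), SESN2 by 0.22 (adjusted p = 0.0102, with overlapping libraries) and DDIT4 by 0.68 (adjusted p = 1.62e-06). Between 8 and 24 h SESN2 fell by 0.54 (adjusted p = 2.50e-06), SESN1 fell by 0.16 (adjusted p = 0.0369) and DDIT4 fell by 0.25 (adjusted p = 0.0185), and for SESN1 and DDIT4 the libraries overlapped. Without replicate 2 of H2O2 8 h the rises were 0.48, 0.35 and 0.83 for SESN1, SESN2 and DDIT4 in turn, and the later differences were -0.26 for SESN1, -0.67 for SESN2 and -0.40 for DDIT4. Without replicate 1 or replicate 3 of H2O2 8 h, the rise of SESN2 (0.17 and 0.15, adjusted p = 0.0683 and 0.0732) and the later falls of SESN1 (-0.12 and -0.10, adjusted p = 0.165 and 0.208) and DDIT4 (-0.17 in both, adjusted p = 0.122) did not pass, nor did either fall without replicate 1 or replicate 2 of H2O2 24 h (SESN1 -0.15 in both, adjusted p = 0.0952 and 0.0913, DDIT4 -0.24 in both, adjusted p = 0.0502 and 0.0531). Quantile normalization also ended the calls of both falls (adjusted p = 0.0989 for SESN1 and 0.0570 for DDIT4), and a fit of only the groups compared ended those and the rise of SESN2 (adjusted p = 0.186, 0.188 and 0.159). After NCS, SESN1 fell by 0.33 from 4 to 8 h (adjusted p = 0.000789) and differed by 0.02 from 8 to 24 h (adjusted p = 0.968). For SESN2 after NCS the steps were 0.02 (95% confidence interval -0.12 to 0.16, adjusted p = 0.984) and -0.13 (-0.27 to 0.02, adjusted p = 0.190). DDIT4 rose in both NCS steps, by 0.55 (adjusted p = 0.000102) and 0.44 (adjusted p = 0.000299). Among all genes, 45.7% and 42.6% passed in either direction in the earlier and later step after H2O2, and 13.7% and 29.9% after NCS.

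The change in the H2O2 minus NCS difference over time was tested as an interaction. For SESN1 it was 0.72 from 4 to 8 h (adjusted p = 3.80e-06 by limma) and 0.54 from 4 to 24 h (adjusted p = 5.41e-05). For DDIT4 it was -0.56 from 4 to 24 h (adjusted p = 0.000683) and 0.13 from 4 to 8 h (95% confidence interval -0.11 to 0.36, adjusted p = 0.449). SESN2 gave 0.20 (0.0027 to 0.40, adjusted p = 0.116) and -0.21 (-0.41 to -0.01, adjusted p = 0.0849). Of all genes, 32.7% passed from 4 to 8 h and 39.4% from 4 to 24 h. Without replicate 2 of H2O2 8 h the values from 4 to 8 h were 0.82 for SESN1, 0.33 for SESN2 (adjusted p = 1.24e-05) and 0.28 for DDIT4 (adjusted p = 0.000365), so the calls for SESN2 and DDIT4 depended on this library.

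**Figure D2:**
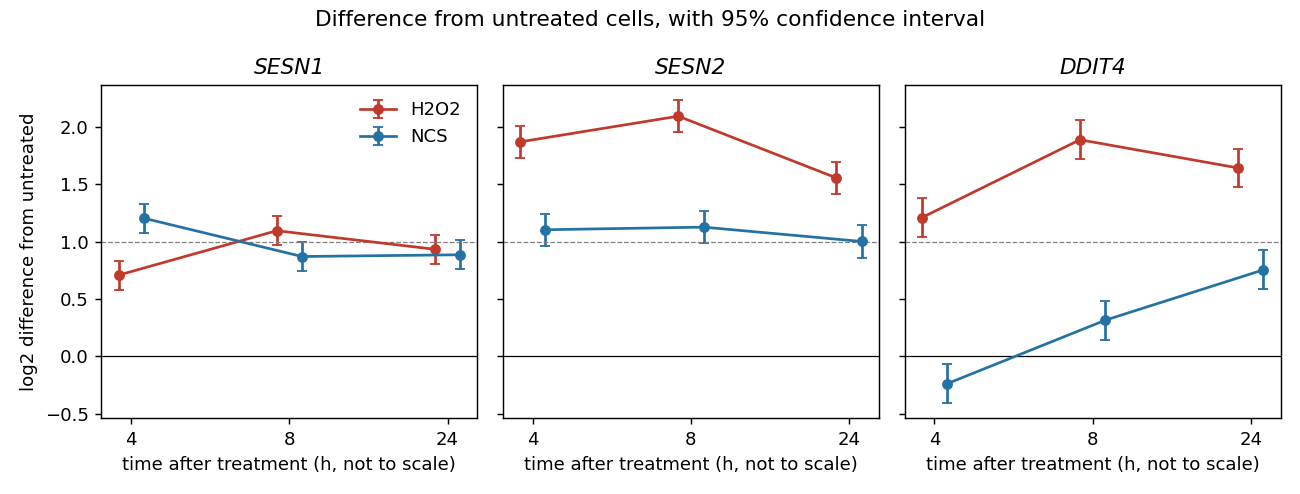
Log2 difference from untreated cells (points) with its 95% confidence interval (bars) at 4, 8 and 24 h after H2O2 (red) and NCS (blue), for SESN1, SESN2 and DDIT4. The solid line marks 0 and the dashed line the limit of 1. For SESN1 the NCS value at 4 h (1.20) lies above that of H2O2 (0.71) and at 8 h the order is the opposite, while for SESN2 and DDIT4 H2O2 lies above NCS at each time.

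Differences between members within a library show how the balance of the family moved. They are not corrected for length, so their change between groups is described and not which gene is more abundant. SESN2 minus SESN1 was 1.27 ± 0.06 log2 units of rLog (mean ± SD, n = 3) in untreated cells. At 4, 8 and 24 h after H2O2 it was 2.43 ± 0.07, 2.27 ± 0.05 and 1.89 ± 0.02, and after NCS it was 1.17 ± 0.03, 1.53 ± 0.01 and 1.39 ± 0.05. H2O2 and NCS libraries did not overlap at any time, and the exact permutation p was 0.1 at each, the smallest the design allows. DDIT4 minus SESN2 was 0.56 ± 0.08 in untreated cells. At these times after H2O2 this difference was -0.10 ± 0.04, 0.35 ± 0.05 and 0.64 ± 0.01, and after NCS it was -0.78 ± 0.04, -0.25 ± 0.04 and 0.31 ± 0.05. In both treatments this difference was lowest at 4 h and higher at each later time, with no overlap between the times (H2O2 against NCS, exact permutation p = 0.1 at each time). The 9 such tests, which included SESN3 minus SESN1, gave Benjamini-Hochberg adjusted values of 0.113 or more. The means of H2O2 8 h without replicate 2 were 2.30 and 0.38 (n = 2).

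**Figure D3:**
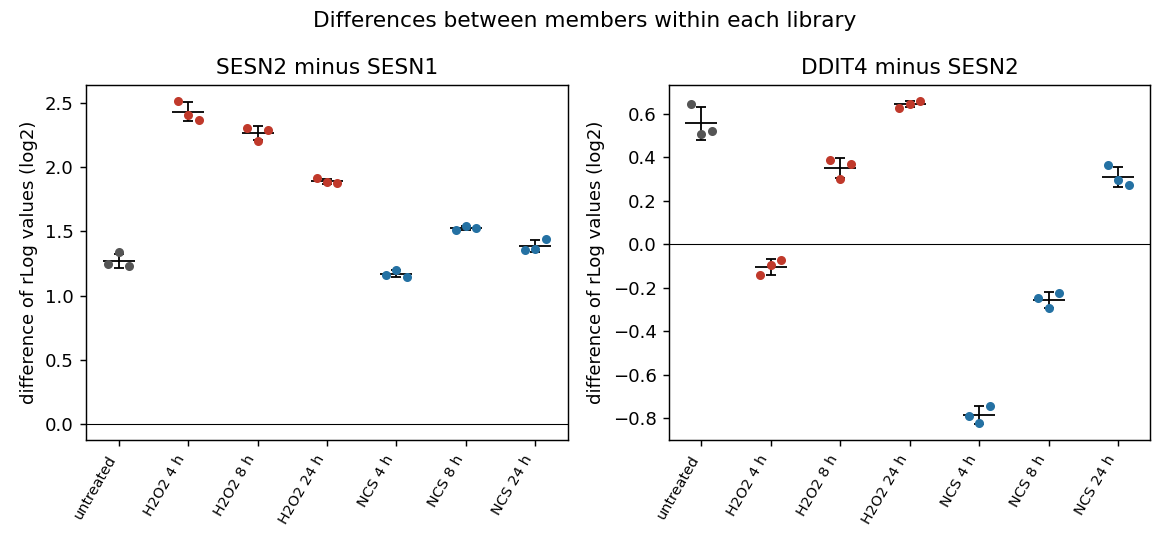
Difference of rLog values (log2) between SESN2 and SESN1 (left) and between DDIT4 and SESN2 (right) within each of the 21 libraries, by group, with the group mean ± SD (n = 3). SESN2 minus SESN1 is highest at 4 h after H2O2 (2.43), and DDIT4 minus SESN2 is lowest at 4 h after NCS (-0.78).

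The transcripts that followed each member most closely over the 21 libraries were different for the 3 responding genes. Among 11681 genes with a mean value of at least 5, those with the highest Pearson r to SESN1 were MDM2 (0.98), PLK3 (0.97) and C12orf5 (0.97, TIGAR). For SESN2 they were DNAJB2 (0.95), DYRK3 (0.94) and ERN1 (0.93), and for DDIT4 they were VLDLR (0.99), ADM2 (0.99) and ULBP1 (0.98). MDM2 is the ubiquitin ligase of p53, ERN1 the endoplasmic reticulum stress sensor IRE1, and VLDLR a lipoprotein receptor. SESN1 and SESN2 had an r of 0.71, SESN2 and DDIT4 0.79, and SESN1 and DDIT4 0.31. The libraries of a group share their treatment and time, so these are descriptions of 7 groups more than of 21 independent points. With ranks or the 7 group means, none of the 3 genes named for SESN2 stayed among its closest 3. Of those named for SESN1, only MDM2 stayed with ranks, and all stayed with the group means. Of those named for DDIT4, VLDLR and ADM2 stayed with both measures and ULBP1 with neither. Without replicate 2 of H2O2 8 h all 3 named for each member stayed.

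Known target genes of p53 and ATF4 were compiled by hand, with earlier results of these data known, and the members themselves were kept out of these lists. MDM2, PLK3 and C12orf5, named above for SESN1, are in the p53 list, and VLDLR, named for DDIT4, is in the ATF4 list. The list values below are therefore descriptions and not independent of the correlations above. The median r to 15 p53 target genes was 0.92 for SESN1, 0.67 for SESN2 and 0.31 for DDIT4, and to 15 ATF4 target genes it was 0.30 for SESN1, 0.77 for SESN2 and 0.95 for DDIT4. Over all genes the medians were -0.002, -0.06 and -0.04. Over the 20 libraries other than replicate 2 of H2O2 8 h, the values for the p53 targets were 0.92, 0.67 and 0.33, and for the ATF4 targets 0.30, 0.75 and 0.94. The p53 targets were higher than in untreated cells in 13 of 15 genes at 4 h after H2O2, where 1 was lower, and in 15 of 15 in the other treated groups. The shares of all genes called higher were 26.2%, 18.8% and 20.2% at 4, 8 and 24 h after H2O2 and 7.47%, 10.5% and 19.6% after NCS. Between treatments, 13 of the p53 targets were lower after H2O2 than after NCS at 4 h, against 18% of all genes, with a median difference of -0.37, where SESN1 differed by -0.50 and SESN2 by 0.77. At 8 h 4 were higher and 3 lower (median 0.01), or 8 and 3 without replicate 2 of H2O2 8 h, and at 24 h 6 were higher and 2 lower (median 0.09). Of all genes, 18.7% and 11% were higher and 15.4% and 10.9% lower after H2O2 than after NCS at 8 and 24 h. The ATF4 targets, mostly genes of amino acid supply and the stress response, were higher in 15 of 15 genes at each time after H2O2. After NCS, 1 was higher and 4 were lower at 4 h (9.72% of all genes were lower), 5 were higher at 8 h and 14 at 24 h. The median ATF4 target difference from untreated cells was -0.07, 0.05 and 0.55 at 4, 8 and 24 h after NCS, beside -0.24, 0.32 and 0.75 for DDIT4. Single ATF4 targets took different courses. TRIB3, a pseudokinase that binds AKT, differed by 0.02, 0.51 and 1.10 at these times, above the list median at each, and VLDLR by -0.26, 0.05 and 0.65. Of the 15 targets, 10 did not pass at 4 h after NCS and 10 did not pass at 8 h. At 4 h and at 8 h after NCS, 1 target other than TRIB3 was already differentially expressed and higher, against 0.0914% and 0.066% of all genes. Differentially expressed in at least 1 of the 9 comparisons with untreated cells or between treatments were 10 p53 targets (BBC3, BTG2, CDKN1A, FAS, FDXR, MDM2, PLK3, SPATA18, TNFRSF10B and TP53INP1) and 14 ATF4 targets (ASNS, ATF3, CEBPB, CEBPG, CHAC1, MTHFD2, NUPR1, PHGDH, PPP1R15A, PSAT1, SLC7A11, SLC7A5, TRIB3 and VLDLR), against 2.62% of all genes.

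Target genes of HIF and the glucocorticoid receptor were counted in the same way. Only 9 of the 12 HIF targets had a mean value of at least 5, and the others had less room for a difference. Of 12 HIF targets, 7 were higher and 2 lower at 4 h after H2O2, and 4 were higher and 4 lower at 8 and at 24 h. These are 58.3%, 33.3% and 33.3% higher, against 26.2%, 18.8% and 20.2% of all genes, and 16.7%, 33.3% and 33.3% lower, against 19.7%, 18.6% and 19.9%. After NCS, 2, 1 and 6 were higher and 4, 5 and 1 lower at 4, 8 and 24 h. The shares of all genes in these NCS groups were 7.47%, 10.5% and 19.6% higher and 9.72%, 13.3% and 18.4% lower. Among the HIF targets VEGFA, the angiogenic growth factor, was differentially expressed, by 1.29, 1.22 and 1.26 after H2O2. Of 7 glucocorticoid targets, 4, 2 and 3 were higher and 3, 1 and 1 lower at these times after H2O2, and 2, 1 and 2 were higher and 3, 3 and 1 lower after NCS. These are 14.3% to 57.1% of the list higher and 14.3% to 42.9% lower, to be read against the same shares of all genes. At 8 h after H2O2, leaving out replicate 2 gave 3 glucocorticoid targets higher in place of 2, and HIF counts of 4 and 4. TSC22D3, a glucocorticoid-induced leucine zipper protein, was the differentially expressed gene among them, with 1.07 at 4 h and 1.06 at 8 h after H2O2.

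Of the transcription factors themselves, ATF4 mRNA rose by 0.92 at 4 h (adjusted p = 4.73e-10 by limma), 0.97 at 8 h and 0.55 at 24 h after H2O2. After NCS it was lower by -0.18 at 4 h, at -0.04 at 8 h (adjusted p = 0.739) and higher by 0.21 at 24 h. DDIT3, the pro-death factor CHOP, rose by 1.45, 1.20 and 1.39 after H2O2 and by 0.83 and 0.88 at 8 and 24 h after NCS, with 0.19 (adjusted p = 0.0622) at 4 h. XBP1, a factor of the unfolded protein response, rose by 0.71, 0.72 and 0.25 after H2O2 and by 0.26 and 0.15 at 8 and 24 h after NCS. NFE2L2, which encodes NRF2, rose by 0.24 and 0.31 at 4 and 8 h after H2O2 and was lower by -0.23 and -0.12 at 4 and 8 h after NCS. EPAS1, the hypoxia factor HIF-2 alpha, rose by 0.47 at 8 h and 1.16 at 24 h after H2O2 and by 0.15, 0.23 and 0.58 at the 3 NCS times. HIF1A rose by 0.32 and 0.21 at 24 h after H2O2 and NCS, and was lower by -0.09 at 8 h after NCS. FOXO1 passed in no treated group (-0.03 to 0.05 from untreated cells), but its mean value was 3.45, where rLog leaves little room for a difference. FOXO3 rose by 0.26 at 8 h after H2O2 and by 0.08 at 8 h after NCS. FOXO4 was lower by -0.17 at 8 h after H2O2 and rose by 0.20 and 0.36 at 24 h after H2O2 and NCS. NR3C1, the glucocorticoid receptor, rose by 0.19 at 4 h after H2O2 and was lower by -0.11 at 24 h after H2O2 and by -0.10, -0.11 and -0.19 at 4, 8 and 24 h after NCS. ATF6, another unfolded protein response factor, was lower by -0.12 at 4 h and -0.06 at 8 h after H2O2 and higher by 0.13 at 24 h after NCS. When replicate 2 of H2O2 8 h was left out, the 8 h difference of ATF6 did not pass (-0.05, adjusted p = 0.0872), while ATF4 (1.08), DDIT3 (1.29), XBP1 (0.79), NFE2L2 (0.35), EPAS1 (0.53), FOXO3 (0.29) and FOXO4 (-0.19) passed.

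The genes of the machinery that the members act on were counted in the same comparisons. Of 82 genes in 10 lists (GATOR2, GATOR1, KICSTOR, other nutrient sensors, Rag GTPases and Ragulator, the TSC complex and RHEB, the mTOR complexes, AMPK, PI3K and AKT, and mTORC1 substrates and outputs), none was differentially expressed in the 9 comparisons by limma, while 32 to 57 had an unadjusted p under 0.05 in a treated group. By the adjusted p-value alone, 21 were higher and 31 lower at 4 h after H2O2, or 25.6% and 37.8%, against 26.2% and 19.7% of all genes. At 8 h 28 were higher (34.1%, against 18.8% of all genes) and 20 lower (24.4%, against 18.6%). At 24 h 33 were higher (40.2%, against 20.2%) and 17 lower (20.7%, against 19.9%). At 4 h after NCS 7 were higher (8.5%, against 7.47% of all genes) and 17 lower (20.7%, against 9.72%). At 8 h after NCS 9 were higher (11%, against 10.5%) and 15 lower (18.3%, against 13.3%). At 24 h after NCS 25 were higher (30.5%, against 19.6%) and 17 lower (20.7%, against 18.4%). The median difference of the 82 genes lay between -0.03 and 0.02 in the 6 treated groups, and that of all genes was within 0.004 of 0. At 8 h after H2O2 without replicate 2, 29 were higher and 22 lower. Of the 19694 genes tested, 11681 had a mean value of at least 5, as did most genes of these lists and of the target lists. The shares of all genes thus include many weakly counted genes, where rLog leaves little room for a call. Shares among genes of like level were not computed, so an excess over all genes may reflect level alone.

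The differences from untreated cells of the GATOR2 genes, the TSC complex and RHEB lay between -0.40 and 0.26. Of the 5 GATOR2 genes, the binding partners of the sestrins, 4 were lower at 4 h after H2O2 (WDR59 by -0.31 and WDR24 by -0.25, for example) and SEC13 was higher by 0.19, against 19.7% of all genes lower and 26.2% higher. At 8 and 24 h after H2O2 1 and 1 of them were higher and 1 and 2 lower, and at 4, 8 and 24 h after NCS 1, 2 and 2 were higher and 1, 1 and 2 lower. Of all genes, 18.8% and 20.2% were higher and 18.6% and 19.9% lower at 8 and 24 h after H2O2. At 4, 8 and 24 h after NCS, 7.47%, 10.5% and 19.6% of all genes were higher and 9.72%, 13.3% and 18.4% lower. In the TSC complex, on which DDIT4 acts, TSC1 was lower by -0.13 at 4 h and higher by 0.26 at 24 h after H2O2, and TSC2 was lower by -0.12 and -0.22 at 4 and 8 h and higher by 0.17 at 24 h. RHEB, the GTPase under TSC control, was higher at 4 h after H2O2. At 24 h RHEB was lower after both H2O2 and NCS, by -0.29 and -0.32. Of the 13 Rag GTPase and Ragulator genes, 7, 6 and 9 were higher (53.8%, 46.2% and 69.2%) and 1, 0 and 0 lower at 4, 8 and 24 h after H2O2. After NCS 0, 1 and 7 were higher (0%, 7.7% and 53.8%) and 2, 1 and 1 lower (15.4%, 7.7% and 7.7%). These are to be read against the shares of all genes given above. At 8 h after H2O2 the counts were 7 and 0 when replicate 2 was left out. MTOR itself was lower by -0.37 at 4 h and -0.28 at 8 h after H2O2 and differed by 0.03 at 24 h (adjusted p = 0.583).

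The largest changes in the pathway lists were these. At 4 h after H2O2 GRB10, an adaptor that damps insulin signalling and is an mTORC1 substrate, rose by 0.55 and DEPDC5, the GATOR1 subunit, fell by 0.61. GRB10 rose most at 8 h as well (0.66), and TFEB, the lysosomal gene regulator that mTORC1 holds in the cytoplasm, rose most at 24 h (0.66). TELO2, a chaperone of mTOR and related kinases, fell most at 8 h (by 0.32) and 24 h (by 0.60). After NCS the largest rises were PRKAB2, an AMPK subunit, at 4 h (0.21), TFEB at 8 h (0.38) and PIK3IP1, an inhibitor of PI3K, at 24 h (0.57). The largest falls after NCS were C7orf60 (-0.37, BMT2, a sensor of S-adenosylmethionine also named SAMTOR) at 4 h, RPS6KB1 (-0.27, the S6 kinase) at 8 h and TELO2 (-0.57) at 24 h.

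**Figure D4:**
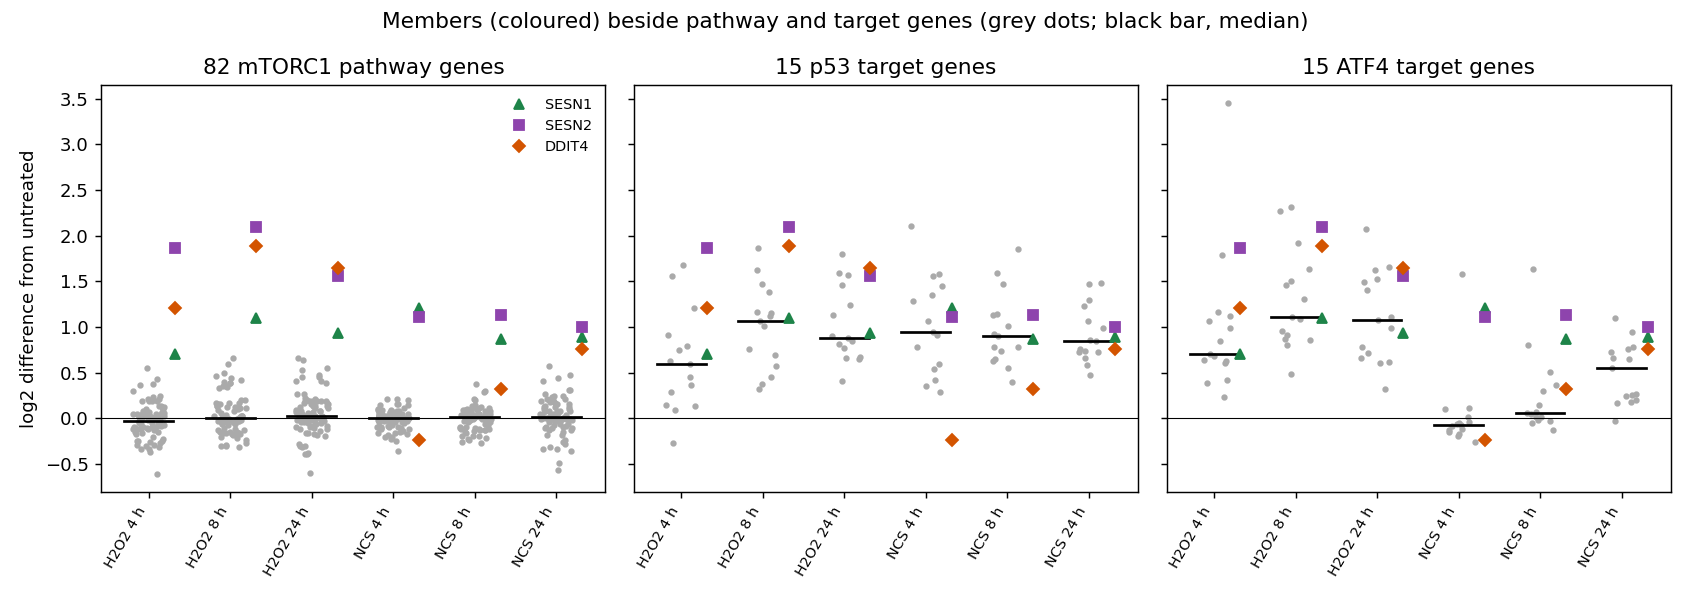
Log2 difference from untreated cells in the 6 treated groups for SESN1, SESN2 and DDIT4 (coloured symbols) beside 82 mTORC1 pathway genes (left), 15 p53 target genes (middle) and 15 ATF4 target genes (right). Grey dots are genes and black bars the median of the list. The pathway genes stay between -0.61 and 0.66, while the members reach 2.09, and at 4 h after NCS the median of the ATF4 targets is -0.07 and DDIT4 is at -0.24.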

How the data were processed

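RNA was measured in 21 libraries of hTERT-HPNE cells, 3 per group. Alignment by the authors was with HISAT2 and counting per gene with HTSeq, and they deposited log2 values made with the rLog transformation of DESeq2 over all libraries. Per the labels the build was hg19, and tool versions are not given in the sources used here. No further normalization was applied. Of 23368 genes, 3674 were 0 in every library, and 19694 were tested with limma 3.58.1 in R 4.3.3, in a single trended fit of the 7 groups, with p-values adjusted by Benjamini and Hochberg's method across all genes. The 15 comparisons were 6 of treated against untreated cells, 3 of H2O2 against NCS, 4 steps in time and 2 interactions. The fit was tested on simulated data.

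The members and the lists were chosen with earlier results of these data known. The genes named are the members, list genes with such a call in at least 1 of 9 comparisons (treated against untreated, H2O2 against NCS), the largest rise and fall of the pathway lists in each treated group, the transcription factors (of which 1 is not reported here) and the 3 genes most correlated with each member of mean value at least 5. Other genes of GATOR2, the TSC complex and RHEB, together with MTOR, were named after their values were seen. The list genes KICS2, CASTOR1, CASTOR2, BMT2 (C7orf60), LARS1, LAMTOR4, LAMTOR5 and TIGAR (C12orf5) were matched through older symbols. Replicates are biological per the labels. Sequences are RefSeq windows (GRCh38.p14) and positions GENCODE v29 (GRCh38). The other settings were quantile normalization, aligned library medians, genes of mean value 5 or more, a fit of only the groups compared, no mean-variance trend, a replicate block, each library left out, a limit of 0.58, and the adjusted p-value alone. Counts of list genes and correlations without replicate 2 of H2O2 8 h were added after seeing the data. Python 3.11.15 was used for figures and sequences.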

Additional observations from a re-analysis of the deposited data

Results flagged for a closer look

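The change over time of the difference between H2O2 and NCS passed the interaction test by limma for SESN1 and DDIT4. For SESN1 the H2O2 minus NCS difference was 0.72 higher at 8 h than at 4 h (adjusted p = 3.80e-06) and 0.54 higher at 24 h than at 4 h (adjusted p = 5.41e-05). For DDIT4 it was -0.56 at 24 h relative to 4 h (adjusted p = 0.000683). Groups of 3 libraries are too small for a test of single outlying libraries.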

How the results depend on the processing

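Over 15 comparisons of the 5 members, 420 values under 6 other settings included 9 that lost and 7 that gained the call at an adjusted p under 0.05, and no called direction turned. With library medians aligned, the interaction for SESN2 passed (0.22 from 4 to 8 h, -0.24 from 4 to 24 h), as did the step of SESN3 from 8 to 24 h after NCS (0.038). With quantile normalization, DDIT4 at 4 h after NCS (-0.22) and the steps of SESN1 (-0.13) and DDIT4 (-0.21) from 8 to 24 h after H2O2 did not pass, and that of DDIT4L from 4 to 8 h did (0.11). With a mean value of at least 5, the interactions of SESN2 (0.20 and -0.21) passed. Without a mean-variance trend, DDIT4 at 4 h after NCS (-0.24) and the SESN1 step from 8 to 24 h after H2O2 (-0.16) did not pass. In fits of only the groups compared, with fewer samples, SESN1 in H2O2 against NCS at 8 h (0.22) and the H2O2 steps of SESN2 from 4 to 8 h (0.22), SESN1 (-0.16) and DDIT4 (-0.25) from 8 to 24 h did not pass, and the SESN2 interaction from 4 to 24 h did (-0.21). The cause of these changes was not tested.

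The counts of differentially expressed members moved with the limit. With a log2 difference over 0.58 they were 2 at 8 h and 3 at 24 h after NCS, in place of 1 and 1, and 2, 2 and 1 between H2O2 and NCS at 4, 8 and 24 h, in place of 1, 1 and 0. By the adjusted p-value alone they were 3 and 3 after NCS at 8 and 24 h, and 3, 3 and 2 between treatments.

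With one library left out, 510 values included 16 that lost and 3 that gained the call. DDIT4 at 4 h after NCS ranged from -0.27 to -0.19. The H2O2 step from 4 to 8 h ranged from 0.15 to 0.35 for SESN2 and from 0.011 to 0.091 for DDIT4L, and the step from 8 to 24 h from -0.26 to -0.10 for SESN1 and from -0.40 to -0.17 for DDIT4. The interaction from 4 to 8 h ranged from 0.13 to 0.33 for SESN2 and from 0.048 to 0.28 for DDIT4. The count of differentially expressed members ranged from 0 to 1 at 24 h after NCS and from 1 to 2 between treatments at 8 h. A threshold passed in 1 setting and missed in another does not show that the values differ between settings.

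Whether the replicate numbers pair the libraries could not be settled with 3 pairs per comparison. Deviations of same-numbered libraries correlated between -0.14 and 0.25, and in 0 of 9 comparisons was every pair over 0.1. Their mean was above that of differently numbered libraries in most comparisons, such as H2O2 against NCS at 8 h (0.17 against -0.08). It was below in the rest, such as NCS 4 h against untreated cells (-0.08 against 0.04). With the replicate block, all calls of the 5 members stayed as they were, for example DDIT4 at 4 h after NCS (-0.24, adjusted p = 0.0430 by limma) and the SESN1 interaction from 4 to 8 h (0.72). Depth was unknown, which limits what can be said of SESN3 and DDIT4L.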
